A study of Homo sapiens with 5 samples.

Results

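BR-DIM for 48 h and isoflavone for 6 h were compared through 1 array of each, 2 of the 5 arrays of the series, in C4-2B cells. C4-2B is a castration-resistant prostate cancer line that descends from LNCaP and spreads to bone. Both cultures grew in RPMI medium with serum and received their agent at 25 µM, a dose that for the isoflavone mixture (G2535, genistein with daidzein) counts its genistein. BR-DIM, written B-DIM in the labels, is a formulation of 3,3′-diindolylmethane, which forms in stomach acid out of an indole found in cabbage and its relatives. The remaining arrays held cells in DMSO as the vehicle control, cells given 25 µM BR-DIM for 6 h and cells given 25 µM isoflavone for 72 h. For the control, the sources used here give no time. Because agent and time both differed between the arrays compared, an effect of the compound and an effect of 48 h against 6 h cannot be told apart. With 1 array per condition there was no spread between replicates, so no difference was tested and each value describes these arrays.

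This pair was chosen on measured values, since KLK3 and CDH1 were low on both arrays. KLK3, which encodes prostate-specific antigen, had a signal of 11.8 on BR-DIM 48 h and 134 with isoflavone at 6 h, against 4219 in the control, 3560 on BR-DIM 6 h and 1388 with isoflavone at 72 h (linear array intensity in all of this text). CDH1, the gene of E-cadherin, read 99.5 and 85.9 on the chosen arrays against 2195, 2114 and 3736 on the others. Signals under 97.1, the median of all signals and called the floor here, were raised to it before a log2 ratio was taken. Of 19775 genes with a probe set, 12842 exceeded the floor in one or both of these cultures and count as measured, and 6933 did not.

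Known targets of ATF4 take up much of the account below. ATF4 is a transcription factor whose translation increases when kinases that sense amino acid shortage, unfolded protein or mitochondrial distress phosphorylate eIF2α. Its targets import and make amino acids, charge tRNAs, restrain mTORC1 and, when stress persists, favour cell death. Diindolylmethane is also known as a ligand of the aryl hydrocarbon receptor, which switches on CYP1 enzymes, and genistein as an estrogen receptor ligand and tyrosine kinase inhibitor.

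The markers of the labelled cell type were unevenly present. Of 14 luminal prostate markers with a probe set, 8 were above the floor on BR-DIM 48 h and 8 with isoflavone at 6 h, with summed signals of 4636 and 4452, against 13 or 14 markers and sums from 16551 to 17151 on the other 3 arrays. These include KLK3 (4219 in the control), and the epithelial markers include CDH1. Both genes chose the pair, so part of the contrast with the other arrays was fixed by the choice. KLK2, FOLH1, TMPRSS2 and TRPM8 were under the floor on both arrays of the pair. Of 22 epithelial junction and keratin markers, 10 were above the floor on each array of the pair and 19 on each other array, and 9 were at the floor on both, among them the epithelial factors EHF and GRHL2 and the junction gene CLDN7. Of 20 mesenchymal markers, 14 and 13 were above it, with sums of 74317 and 49471, against 42482 in the control, 55498 on BR-DIM 6 h and 66653 with isoflavone at 72 h. VIM, the gene of the filament protein vimentin, alone read 50009 with BR-DIM at 48 h, 33275 with isoflavone at 6 h and 22024 in the control. Of macrophage and osteoclast markers 3 of 10 were above the floor on both arrays, of endothelial markers 1 and 0 of 7, and of lymphocyte markers 1 and 0 of 7. In bulk RNA, fewer cells of a type and less RNA per cell cannot be told apart.

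CDH1, by which the arrays were chosen, lay near the floor on both, so its likeness follows from the choice. Of 10 measured luminal markers 0 passed 2-fold, with KLK3 at the floor on BR-DIM 48 h, but epithelial genes were not all alike. Among 13 measured epithelial markers, 6 passed 2-fold toward BR-DIM 48 h and 0 toward isoflavone 6 h, beside 8.04% and 3.11% of all measured genes. Their median log2 ratio was 0.69. ESRP1, an epithelial splicing regulator, read 298 on BR-DIM 48 h and 10.4 with isoflavone at 6 h, against 375 in the control, a difference of at least 3.07-fold. MAL2, a transcytosis protein, read 744 and 270 (log2 ratio 1.46), and OCLN, the tight junction gene occludin, 2016 and 870 (1.21). The keratin gene KRT18 read 1033 and 461 (1.16), with 2739 in the control. EPCAM followed at 294 and 138 (1.09), and was 0.86 once the trend with signal was removed. On isoflavone 6 h these genes were at their lowest of the 5 arrays. Of the repressors of epithelial genes, ZEB1 and SNAI2 differed by less than 2-fold between the arrays (0.80 and 0.52). ZEB2, another such repressor, read 387 on BR-DIM 48 h against 85.5, under the floor, on isoflavone 6 h (at least 3.98-fold). It was the only 1 of 14 measured mesenchymal markers past 2-fold. The part of the difference in epithelial genes in the results that follow was not tested.

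**Figure D1:**
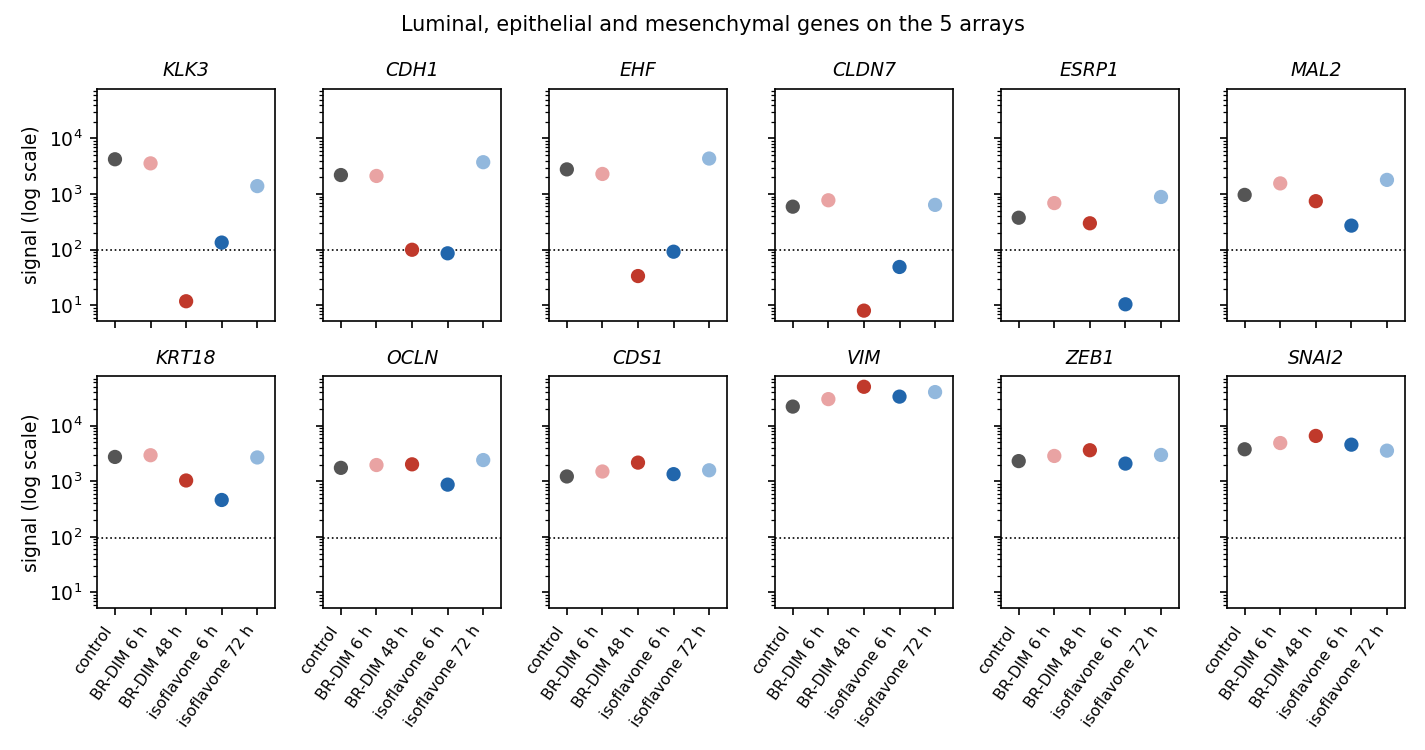
Signal (vertical axis, intensity on a log scale) of luminal, epithelial and mesenchymal genes on each of the 5 arrays, each array giving one point, with a dotted line at the floor (97.1). KLK3, CDH1, EHF and CLDN7 lie near or under the floor on the arrays compared, while ESRP1, MAL2, KRT18 and OCLN are higher on BR-DIM 48 h.

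Of the measured genes, 1032 (8.04%) had a signal on BR-DIM 48 h that was 2-fold or more above that on isoflavone 6 h, and 400 (3.11%) had one 2-fold or more below it. The other 11410 genes, or 88.8%, lay within 2-fold, and the median log2 ratio was 0.055. Higher genes made up 72.1% of the calls, and the split became 812 higher and 542 lower (60.0%) when a smooth trend of the ratio with signal was subtracted. The trend can be read from bands of signal on the higher array. Genes at 2 to 4 times the floor had a median of 0.24 with 353 of 1805 higher, whereas those above 16 times the floor had a median of −0.04 with 182 of 4314 higher and 89 lower. Of the higher genes 221 were at or under the floor on isoflavone 6 h, and of the lower genes 63 were so on BR-DIM 48 h, so that their folds are lower bounds. At 4-fold or more the split was 96 to 9, and at 8-fold or more 11 to 0. Just inside the limit of 2-fold lay NAB2 (259 and 129.5) and RPLP2 (479 and 239) on the higher side and SH3BGRL3 (347 and 695) on the lower side, and just outside it lay PTPN4 (1031 and 515) and ATP6V1C1 (1078 and 2156).

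The control array was set beside these differences. For 834 of the 1032 higher genes its signal fell between those of the pair, and for 636 (61.6%) it was nearer on the log scale to isoflavone 6 h. Among the 400 lower genes it fell between in 310 and was nearer to isoflavone 6 h in 302 (75.5%). Because the genes were picked by the ratio of these arrays, a control between them is in part expected. No such share was taken over all measured genes, so these shares have no background to be read against.

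**Figure D2:**
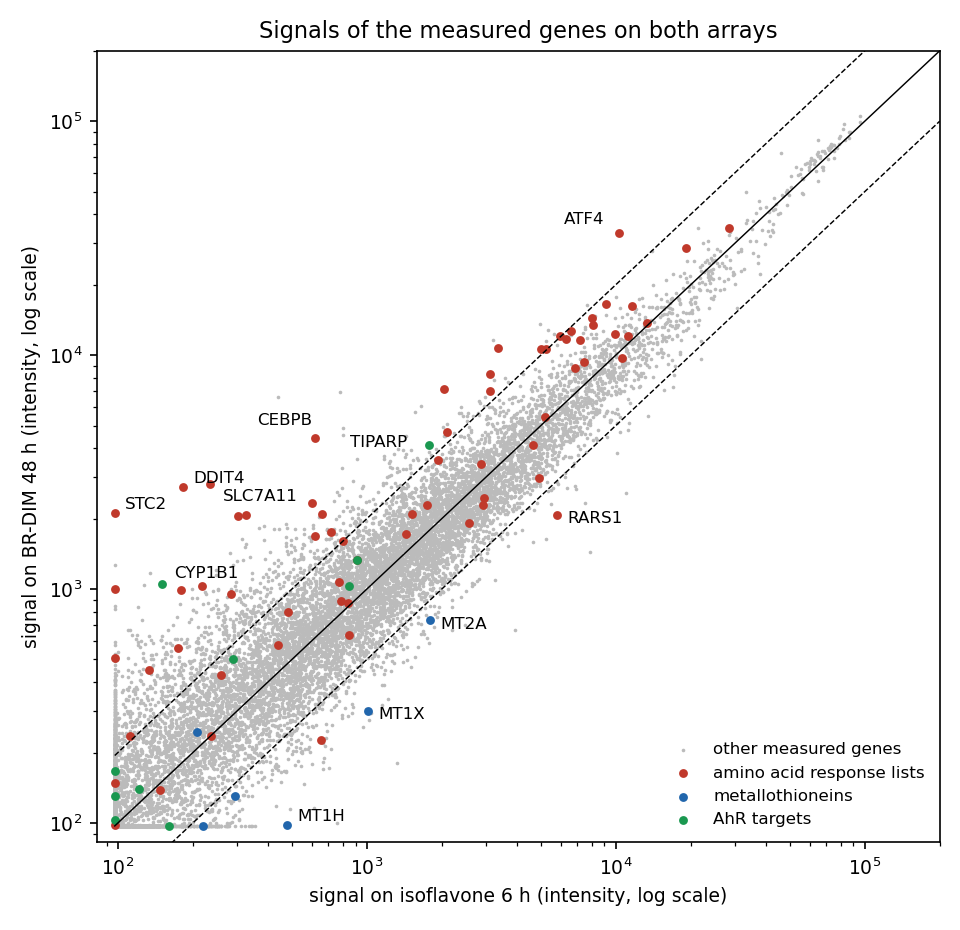
Signal on BR-DIM 48 h (vertical axis) against isoflavone 6 h (horizontal axis), both intensities on log scales and raised to the floor, with 1 point per measured gene. The solid line marks equal signals and the dashed lines 2-fold, and genes of the amino acid response lists such as STC2 (21.7-fold), DDIT4 and CEBPB stand above the upper line while MT2A, MT1X and MT1H stand below the lower one.

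Genes of the ATF4 amino acid and stress response were often higher on BR-DIM 48 h. Over 5 lists that hold ATF4 and its partner factors, amino acid transporters, enzymes of amino acid and one-carbon synthesis, cytosolic tRNA synthetases, and mTORC1 brakes with other stress outputs, 68 genes were measured. Of these 28 (41.2%) were at least 2-fold higher and 2 lower, beside 8.04% and 3.11% of all genes. Their median log2 ratio was 0.73, and 57 of 68 were above 0. For 23 of the 28 (82.1%) the control was nearer to isoflavone 6 h, beside 61.6% of all higher genes. Their median log2 ratio to the control was 1.53 on BR-DIM 48 h and −0.25 with isoflavone at 6 h. These 28 genes were picked by the ratio of the same arrays, so the share and both medians follow in part from that choice. They were not taken over all 68 genes.

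A short DNA element bound by ATF4 with C/EBP proteins is the known entry point of this program. Searched as TGATGNAAN on both strands in the 300 bases around the start of 10452 measured genes with a RefSeq promoter (GRCh38.p14, 250 bases before to 50 after the start), it occurred in 178 promoters, or 1.7%. In the 5 lists it occurred in 13 of 56 (23.2%), which were those of AARS1, ASNS, ATF3, CARS1, CHAC1, FGF21, GOT1, IARS1, NARS1, SLC38A1, SLC3A2, SLC7A1 and TARS1. The lists were written from knowledge of ATF4 targets, so this share describes the lists and is no finding of the arrays. Among the 178 genes 20 (11.2%) were at least 2-fold higher and 2 lower, beside 784 of 10274 (7.63%) without the element. Outside the lists it was 13 of 165 (7.88%) with the element and 770 of 10231 (7.53%) without it. Within the lists the counts of higher genes were 7 of 13 and 14 of 43. The stretches of 250 bases before the start are shown for 3 genes higher on BR-DIM 48 h that carry an identical copy, in capitals and read here on the opposite strand as GTTGCATCA. They are CHAC1 at chr15:40953221-40953470 on the plus strand, AARS1 at chr16:70289507-70289756 on the minus strand, and HERPUD1 at chr16:56931892-56932141 on the plus strand. Each is written 5′ to 3′ toward its gene, and the element begins 210, 188 and 177 bases before the start.
CHAC1: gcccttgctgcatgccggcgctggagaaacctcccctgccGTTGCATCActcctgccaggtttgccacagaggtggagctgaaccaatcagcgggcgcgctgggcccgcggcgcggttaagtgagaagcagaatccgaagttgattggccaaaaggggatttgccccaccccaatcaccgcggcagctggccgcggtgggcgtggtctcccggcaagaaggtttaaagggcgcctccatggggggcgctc
AARS1: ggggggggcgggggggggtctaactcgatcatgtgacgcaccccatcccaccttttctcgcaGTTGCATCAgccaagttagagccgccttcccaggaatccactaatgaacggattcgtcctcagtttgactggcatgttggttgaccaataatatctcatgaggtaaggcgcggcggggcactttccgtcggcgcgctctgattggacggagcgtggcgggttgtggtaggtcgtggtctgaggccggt
HERPUD1: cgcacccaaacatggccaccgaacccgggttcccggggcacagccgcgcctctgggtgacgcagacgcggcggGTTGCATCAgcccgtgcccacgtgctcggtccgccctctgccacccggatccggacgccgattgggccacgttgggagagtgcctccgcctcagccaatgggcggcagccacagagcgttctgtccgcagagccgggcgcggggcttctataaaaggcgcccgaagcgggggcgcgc
CHAC1 encodes an enzyme that degrades glutathione, AARS1 the alanyl-tRNA synthetase and HERPUD1 a protein of endoplasmic reticulum-associated degradation. CHAC1 read 451 on BR-DIM 48 h and 133.4 with isoflavone at 6 h (log2 ratio 1.76), AARS1 4676 and 2094 (1.16), and HERPUD1 2894 and 876 (1.72). All 3 were higher on BR-DIM 6 h (849, 5740 and 2823) and on isoflavone 72 h (491, 4080 and 2904) than in the control (68.5, 2678 and 1122).

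The list of ATF4 and stress factors had the highest median of the 5 lists. Of 12 factors and direct stress genes, 10 were at least 2-fold higher, 0 were lower, and the median log2 ratio was 1.73. ATF4 itself, a bright gene, read 33336 on BR-DIM 48 h and 10250 with isoflavone at 6 h (3.25-fold), with 13046 in the control, 29417 on BR-DIM 6 h and 31622 with isoflavone at 72 h. Isoflavone 6 h and the control were thus low and the other 3 arrays high. CEBPB, a partner factor, read 4430 and 619 (7.16-fold), with 1083, 4674 and 4087 in the same order. DDIT3, the death-promoting factor CHOP, read 2068 and 327 (6.32-fold), with 315, 2484 and 2231. TRIB3, a pseudokinase that dampens ATF4 and AKT, read 2048 and 305 (6.72-fold), with 793, 1985 and 2167. In these 4 genes isoflavone 6 h lay near or below the control, and the other 3 treated arrays stood above it. JDP2 reached at least 5.25-fold (509 against a signal under the floor), CEBPG 3.51-fold, ATF3 3.18-fold (10704 and 3366) and NUPR1 2.09-fold (235 and 112). The members short of 2-fold were ATF5 (0.73) and PPP1R15A (0.73), which encodes a phosphatase subunit that reverses eIF2α phosphorylation.

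Among mTORC1 brakes and other stress outputs, 6 of 11 were at least 2-fold higher and 0 were lower, with a median of 1.45. STC2, a secreted stress glycoprotein, had the highest ratio of all measured genes, with 2109 on BR-DIM 48 h against 91.9, under the floor, on isoflavone 6 h (at least 21.7-fold). The control read 348, BR-DIM 6 h 1227 and isoflavone 72 h 1828. Its second, dimmer probe set read 336 and 50.8 (1.79). DDIT4, an inhibitor of mTORC1, read 2726 and 182 (14.9-fold), with 630 for the control, 5359 for BR-DIM 6 h and 3347 for isoflavone 72 h. Isoflavone 6 h was the lowest array for both. SESN2, another mTORC1 inhibitor fed by ATF4, read 1688 and 619 (1.45). VLDLR, a lipoprotein receptor, read 1003 against a signal under the floor, at least 10.3-fold. GDF15, a secreted stress hormone, read 1031 and 217 (2.25) and was far higher on BR-DIM 6 h (4695) and isoflavone 72 h (4051). VEGFA read 2333 and 602 (1.95). SESN1, SESN3, TXNIP, CDKN1A and FGF21 lay within 2-fold.

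Amino acid transporters divided in a similar way. Of 15 measured, 7 were at least 2-fold higher and 1 lower, with a median of 0.89. SLC7A11, the cystine importer, read 2812 and 235 (3.58), and a second probe set gave 1860 and 171 (3.44). It read 473 in the control, 3446 on BR-DIM 6 h and 6297 with isoflavone at 72 h. SLC3A2, the heavy chain that carries SLC7A11 to the membrane, read 2090 and 658 (1.67). SLC1A4 (1.74), SLC43A1 (1.67), the glutamine transporter SLC38A1 (1.41), the cationic carrier SLC7A1 (1.08) and SLC7A3 (1602 and 800.2) made up the rest. SLC36A1, a lysosomal amino acid exporter, was the member on the lower side, at 227 and 652 (−1.52). SLC1A4 was 0.42 when probe sets with IDs ending in _s_at or _x_at were left out, because a dim probe set then stood for it.

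Synthesis enzymes and tRNA synthetases differed less. Of 13 enzymes 2 were higher, namely PSPH, the last step of serine synthesis (992 and 179, 2.47), and CTH, which makes cysteine (1758 and 719, 1.29). ASNS, the asparagine synthetase, departed from the pattern of the factors, since isoflavone 6 h was high too. It read 28562 on BR-DIM 48 h and 19146 with isoflavone at 6 h (0.58), against 4353 in the control, 14932 on BR-DIM 6 h and 31413 with isoflavone at 72 h. PHGDH, the first step of serine synthesis, read 9694 and 10609 (−0.13), with 4758 in the control. Of 17 synthetases AARS1, TARS1 (1.02) and YARS1 (1.01) were higher, and GARS1 (0.94), SARS1 (0.86) and NARS1 (0.74) fell short of 2-fold. RARS1, the arginyl-tRNA synthetase, was lower, at 2080 and 5819 (−1.48), with 11221 in the control and 2870 on BR-DIM 6 h.

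**Figure D3:**
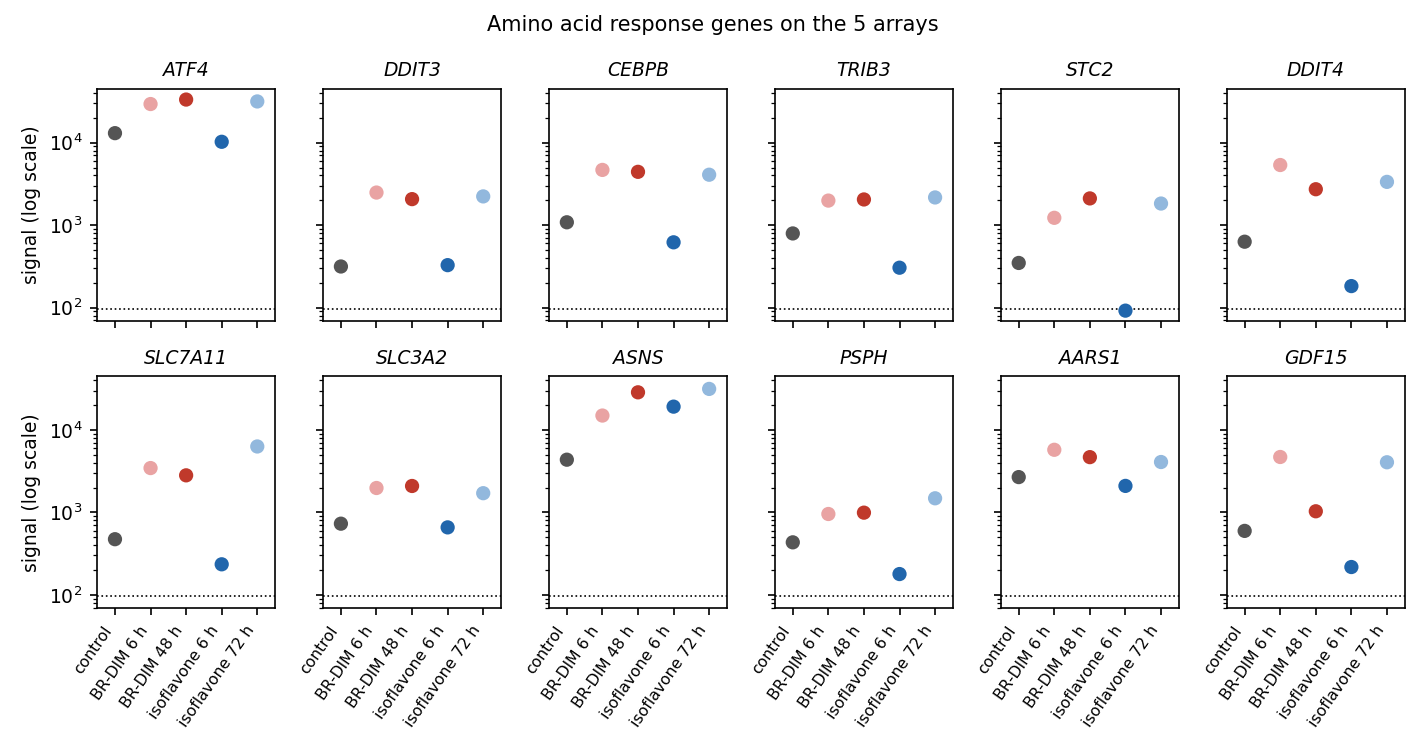
Signal (vertical axis, intensity on a log scale) of amino acid response genes on each of the 5 arrays, each array giving one point, with a dotted line at the floor (97.1). ATF4, DDIT3, CEBPB, TRIB3 and SLC7A11 are low in the control and on isoflavone 6 h and high on the other 3 arrays, whereas ASNS is also high on isoflavone 6 h (19146 against 4353 in the control).

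The endoplasmic reticulum branch did not follow as a group. Of 23 genes of the unfolded protein response, 2 (8.7%) were higher and 1 (4.35%) lower, near the 8.04% and 3.11% of all genes, with a median of −0.12. Besides HERPUD1, XBP1, the factor spliced by IRE1, was higher at 2608 and 756 (1.79), although its second, dim probe set gave −0.87 and the mean of both 0.46. The chaperone HSPA5 read 9591 and 11529 (−0.27), HSP90B1 0.06 and DNAJB9 0.68, and CRELD2 was lower at 1327 and 3021 (−1.19). Among 13 heat shock proteins and cochaperones 0 were higher and DNAJB1 was lower (1729 and 3938, −1.19), with a median of −0.18. Antioxidant targets of NRF2 had 2 of 16 (12.5%) higher, which were SLC7A11 and HMOX1 (283 and 112, 1.34), and 0 lower.

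Of 10 measured targets of the aryl hydrocarbon receptor, 2 were at least 2-fold higher and 0 lower, beside 8.04% and 3.11% of all genes, with a median log2 ratio of 0.48. CYP1B1, an estrogen hydroxylase, read 1048 on BR-DIM 48 h and 150 with isoflavone at 6 h (6.98-fold). It read 960 on BR-DIM 6 h, 172 in the control and 118 on isoflavone 72 h, so both BR-DIM arrays stood above the other 3. TIPARP, an ADP-ribosyltransferase that represses the receptor, read 4138 and 1779 (2.33-fold), with 3267, 1188 and 1192 on those arrays. CYP1A1, the target most often used to report the receptor, read 166 on BR-DIM 48 h and 83.7 with isoflavone at 6 h, short of 2-fold at the floor (at least 1.71-fold), beside 1170 on BR-DIM 6 h. CYP1A2 read 139 and 121. NQO1, shared with NRF2, read 48.3 and 160 and thus lay at the floor on BR-DIM 48 h, with 920 in the control and 4000 on isoflavone 72 h. AHR and AHRR differed by less than 2-fold (0.80 and 0.28).

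In the other pair of arrays, BR-DIM 6 h over isoflavone 72 h, the same compounds were compared on arrays that the first comparison does not use and with the order of the times reversed. KLK3 and CDH1 were above the floor on both of them. There 4 of 9 measured AhR targets were at least 2-fold higher and 1 lower, with a median of 0.83, beside 2.47% of 13135 genes higher and 2.46% lower. CYP1B1 was 8.13-fold and TIPARP 2.74-fold higher, CYP1A1 8.74-fold and CYP1A2 3.32-fold. CYP1B1 and TIPARP were therefore higher with BR-DIM in both pairs. The promoter of TIPARP is shown because it is the higher AhR target with a sequence in the table, of which 3 starts are listed and the first was used. Its 250 bases before the start, chr3:156674340-156674589 on the plus strand (RefSeq, GRCh38.p14), hold 2 copies of the receptor's core GCGTG, both on the opposite strand and so read as CACGC in capitals, at 208 and 142 bases before the start.
TIPARP: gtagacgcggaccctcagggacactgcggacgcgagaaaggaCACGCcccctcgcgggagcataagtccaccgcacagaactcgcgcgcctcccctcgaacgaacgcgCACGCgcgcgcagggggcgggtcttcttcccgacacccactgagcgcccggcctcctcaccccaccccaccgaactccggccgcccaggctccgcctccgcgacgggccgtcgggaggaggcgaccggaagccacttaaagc
The core is short and common: searched on both strands it occurred in 5283 of 10452 promoters (50.5%), in 380 of 804 higher genes (47.3%) and in 182 of 327 lower genes (55.7%). Its match can share bases with the metal response element described next.

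Metallothioneins were lower on BR-DIM 48 h. They are small cysteine-rich proteins that bind zinc and copper, and zinc switches their genes on through MTF1. Of 9 measured genes of metallothioneins and zinc handling 5 were at least 2-fold lower and 0 higher, beside 3.11% and 8.04% of all genes, with a median of −1.17. MT1X read 301 on BR-DIM 48 h and 1012 with isoflavone at 6 h (3.36-fold lower), with 1382 in the control, 1221 on BR-DIM 6 h and 3213 with isoflavone at 72 h. MT2A read 734 and 1788 (2.44-fold lower), with 2638, 2951 and 6261. MT1H read 97.9 and 476 (4.86-fold lower), with 273, 372 and 849. BR-DIM 48 h was the lowest array for each of these and isoflavone 72 h the highest. MT1E (131 and 295) and MT1F (22.5 and 219) were lower as well, while MT1G (0.23) and the zinc transporters SLC30A1 (0.44) and SLC39A10 (0.67) lay within 2-fold. MTF1 itself read 539 and 1007 (−0.90).

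These genes are near-identical copies in one cluster, and each was read by a probe set of the _x_at kind, which can bind related transcripts, so their signals may not be separate. A second probe set gave −0.82 for MT1X, −0.32 for MT1E and 0.68 for MT1F, and without such probe sets, which leaves out each gene called here, the median of the list was 0.08. In the other pair of arrays 6 of 9 genes were at least 2-fold lower, beside 2.46% of all genes, with a median of −1.16 (MT1X 2.63-fold and MT2A 2.12-fold lower). Promoters were available for MT2A, MT1X and MT1H and are shown for their metal response elements, searched as TGCGCNC on both strands and set in capitals. They lie at chr16:56608334-56608583, chr16:56682220-56682469 and chr16:56669564-56669813, all on the plus strand of GRCh38.p14 by RefSeq, and hold 2, 2 and 4 copies in the 250 bases before the start.
MT2A: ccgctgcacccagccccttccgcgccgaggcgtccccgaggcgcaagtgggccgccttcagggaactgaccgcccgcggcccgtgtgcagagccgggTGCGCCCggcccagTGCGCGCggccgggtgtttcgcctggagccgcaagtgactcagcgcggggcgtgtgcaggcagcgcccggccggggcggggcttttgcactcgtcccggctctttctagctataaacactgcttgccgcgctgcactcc
MT1X: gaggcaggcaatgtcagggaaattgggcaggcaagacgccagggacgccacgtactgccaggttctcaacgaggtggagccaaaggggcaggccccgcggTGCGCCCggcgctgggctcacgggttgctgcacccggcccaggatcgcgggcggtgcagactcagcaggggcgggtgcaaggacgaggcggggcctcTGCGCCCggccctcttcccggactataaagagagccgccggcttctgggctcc
MT1H: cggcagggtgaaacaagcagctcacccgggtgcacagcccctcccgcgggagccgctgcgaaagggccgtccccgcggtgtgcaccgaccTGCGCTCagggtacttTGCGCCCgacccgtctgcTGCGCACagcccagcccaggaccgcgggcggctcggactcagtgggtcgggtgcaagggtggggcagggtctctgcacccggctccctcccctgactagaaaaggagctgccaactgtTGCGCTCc
The nearest copy of MT1X begins 53 bases before its start, and those of MT2A begin 153 and 139 bases before it. The element is frequent in these windows, with 3284 of 10452 promoters (31.4%), 278 of 804 higher genes (34.6%) and 107 of 327 lower genes (32.7%).

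**Figure D4:**
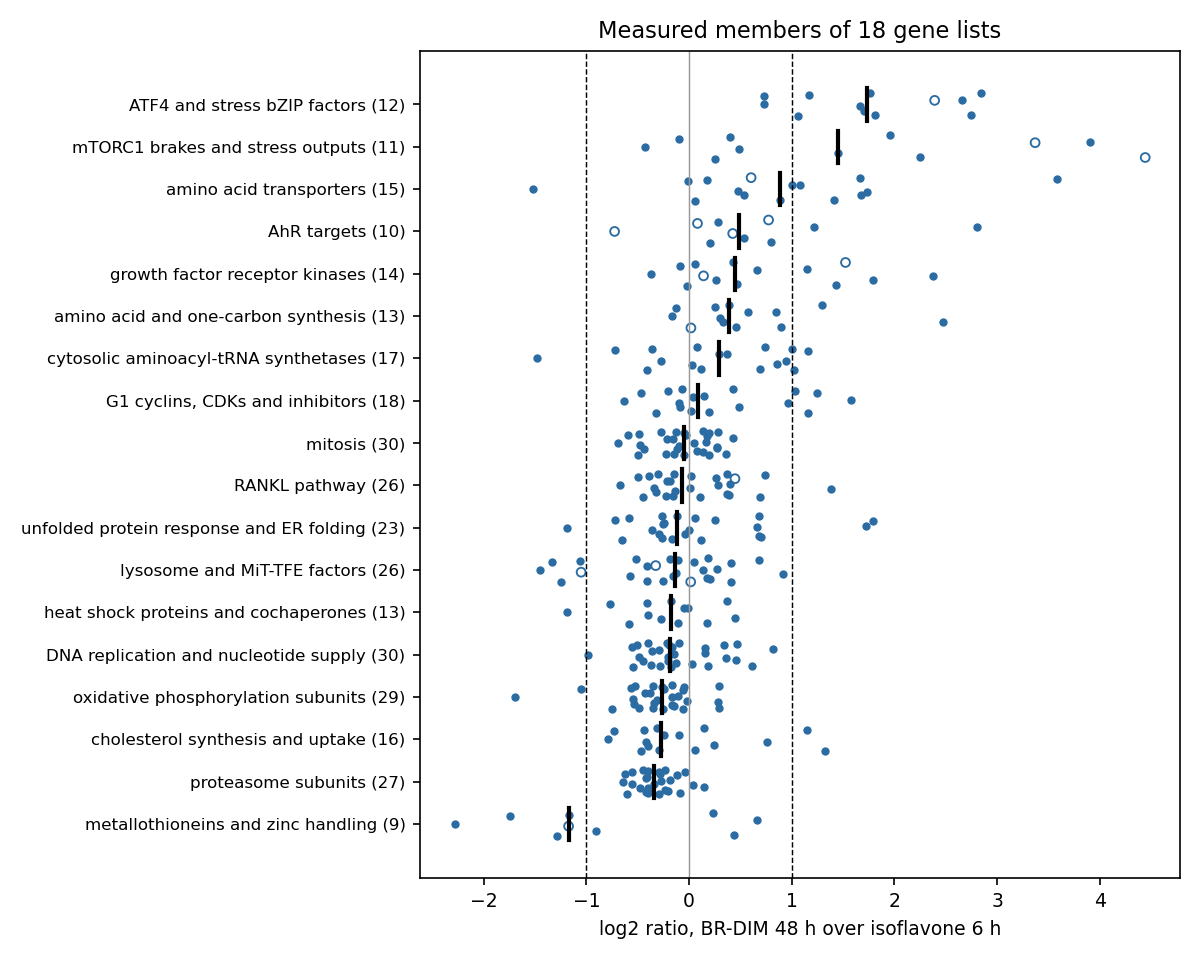
Log2 ratio of BR-DIM 48 h over isoflavone 6 h (horizontal axis) of every measured member of 18 gene lists, with the number measured in brackets. Points stand for genes and are open where a signal was at the floor, black bars are medians and dashed lines mark 2-fold; the list of ATF4 and stress factors has the highest median (1.73) and that of metallothioneins the lowest (−1.17).

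Growth factor receptor kinases were higher or alike. Of 14 measured, 5 were at least 2-fold higher and 0 lower, beside 8.04% and 3.11% of all genes, with a median of 0.45. MET, the hepatocyte growth factor receptor, read 1642 and 316 (2.38), with 645 in the control. KIT, the stem cell factor receptor, read 1350 and 391 (3.45-fold), with 493 in the control. EGFR read 1080 and 400 (2.70-fold), with 831 in the control, and was 0.83 without _s_at and _x_at probe sets. PDGFRA reached at least 2.87-fold (279 against a signal under the floor) and FGFR4 2.21-fold, whereas ERBB2 (0.27), FGFR1 (−0.08) and IGF1R (0.43) differed little. IRS1, an adaptor of the insulin receptors, read 337 and 108 (1.65).

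Cell cycle genes were close to equal. None of 30 mitosis genes and none of 30 DNA replication genes passed 2-fold in either direction, with medians of −0.05 and −0.18. MKI67 was at 0.19, PLK1 at −0.50, CCNB1 at −0.44 and MCM2 at −0.20. Of 18 G1 cyclins, CDKs and inhibitors 4 were higher and 0 lower, beside 8.04% and 3.11% of all genes. They were CDKN1C, the gene of the inhibitor p57 (485 and 162, 1.58), CCND2 (6649 and 2971, 1.16), RB1 (644 and 314, 1.04) and CCND1. CDKN1C, CCND2 and RB1 were at 0.66, 0.58 and 0.59 when all their probe sets were averaged.

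For 7 genes of the study's array table the probe sets it names were read. CCND1, the gene of cyclin D1, read 232 and 97.8 (1.25) with 346 in the control, and its brighter probe set read 516 and 796 (−0.63), so its direction depended on the probe set. CDKN1B, which encodes p27, read 2823 and 1448 (0.96) with 1379 in the control. AKT1 read 894 and 1224 (−0.45), against 2149 in the control. MITF, a factor of osteoclast and melanocyte genes, read 382 and 425 (−0.15), against 809 in the control. CDK13 (−0.05) and CREB1 (−0.22) were near equal. KLK3, used to choose the arrays, was at the floor on BR-DIM 48 h and it was at least 1.38-fold lower, or −1.47 by its brightest probe set. On the RANKL pathway 1 of 26 genes passed 2-fold, the adaptor TRAF5 at 1416 and 545 (1.38), 0 were lower, and the median was −0.07. Of all genes 8.04% were higher and 3.11% lower. RUNX2, a factor of osteoblasts, read 508 on BR-DIM 48 h and 37.6 with isoflavone at 6 h, at least 5.23-fold, against 314 in the control, 451 on BR-DIM 6 h and 407 with isoflavone at 72 h. Its other probe sets were under the floor on both arrays of the pair, and its log2 ratio was 0.11 with the floor raised to the 75th percentile.

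Lysosomal, oxidative phosphorylation and proteasome genes had medians below 0 in the first pair of arrays. Of 26 lysosomal genes and factors 0 were higher and 5 were lower, beside 8.04% and 3.11% of all genes. Their median was −0.14, with 11 of 26 above 0. The lower genes were the calcium channel MCOLN1 (207 and 566, −1.45), the proteases CTSA (553 and 1398, −1.34) and CTSD (a bound of −1.05), the sialidase NEU1 (488 and 1157, −1.24) and the proton pump subunit ATP6V0D1 (973 and 2030, −1.06). Of 29 subunits of oxidative phosphorylation 26 were below 0, with a median of −0.26, and 2 were at least 2-fold lower: ATP5MC1 of the ATP synthase (2328 and 7529, −1.69) and NDUFA2 of complex I (8259 and 17129, −1.05). All but 2 of 27 proteasome subunits were below 0 (median −0.34), and 0 passed 2-fold. In the other pair the medians were above 0, at 0.15 for lysosomal, 0.32 for oxidative phosphorylation and 0.17 for proteasome genes. The medians of the first pair sit beside 0.055 for all measured genes and −0.04 for genes above 16 times the floor. Of the lower lysosomal genes MCOLN1, CTSA, CTSD and NEU1 were dimmer than that on both arrays. Of 10 housekeeping genes 0 passed 2-fold, with a median of −0.10.

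Beside STC2, DDIT4, SLC7A11 and VLDLR, further genes stood at the extremes. On the higher side were CD24, a surface glycoprotein with near-identical copies elsewhere in the genome (6640 and 440, 15.1-fold), GPAT3, an enzyme of triglyceride synthesis (1262 against a signal under the floor, at least 13.0-fold), SDC1, the proteoglycan syndecan (1174 and 135, 8.70-fold), and INSM1, a neuroendocrine zinc finger factor (at least 8.47-fold). All 6 CD24 probe sets gave log2 ratios from 2.86 to 3.92. INSM1 was read by an _s_at probe set, and a dim probe set read 123.5 and 50.2 (0.35). IFRD1 followed at 4888 and 805 (6.07-fold). HES5, a Notch target (6.08-fold), and RORB, an orphan nuclear receptor (5.93-fold), were dimmer, at 668 and 665 on BR-DIM 48 h.

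On the lower side HEXIM1, an inhibitor of the elongation factor P-TEFb, stood out with its highest signal of the series on isoflavone 6 h. It read 3918 there and 666 on BR-DIM 48 h (5.89-fold lower), with 1569 in the control, 946 on BR-DIM 6 h and 1384 with isoflavone at 72 h. Its second _s_at probe set read 1175 and 488 (−1.27), and another, dim probe set went the other way (0.68). CCN2, a matricellular target of YAP, read 318 and 1145 (−1.85), against 113 in the control. TFRC, the transferrin receptor, read 2583 and 10989 (4.25-fold lower), against 10589 in the control, and 2 further bright probe sets gave −1.50 and −1.80. For TFRC isoflavone 6 h was close to the control, HEXIM1 lay below the control on BR-DIM 48 h and above it on isoflavone 6 h, and CCN2 lay above it on both. ADI1, an enzyme of methionine salvage, read 1434 and 7857 (5.48-fold lower), against 7531 in the control. ATF7IP2 read 181 and 1325 (7.33-fold lower), but its second probe set read 320.8 and 354.5 (−0.14). BORCS8, a subunit of a lysosome positioning complex, read 100.1 and 757 (7.57-fold lower), but its second probe set read 232 and 190.1 (0.29).

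The other pair of arrays shows how much of the comparison returned when the times were reversed. Of 12074 genes measured in both pairs, 303 (2.51%) were at least 2-fold higher and 301 (2.49%) lower on BR-DIM 6 h than on isoflavone 72 h. Among 1018 genes higher in the first pair, 45 (4.42%) were higher and 46 (4.52%) lower in the other, and 52.5% had a ratio above 0, beside 52.8% of all genes. Among 396 lower genes 23 (5.81%) were lower and 20 (5.05%) higher. The 45 genes were 14.9% of those higher in the other pair, and the 23 genes 7.64% of those lower. Shares in the same and in the opposite direction were thus close to each other, and the difference between the pairs was not tested. The 68 amino acid response genes had a median of −0.02 in the other pair, with 0 higher and 3 lower. ATF4 (−0.10), DDIT3 (0.16), CEBPB (0.19), TRIB3 (−0.13) and STC2 (−0.57) were all within 2-fold there, both arrays being high.

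Genes higher with BR-DIM in both pairs, besides CYP1B1 and TIPARP, were led by IL12A, a cytokine subunit, at 425 on BR-DIM 48 h and 456 on BR-DIM 6 h against 65.0 and 116 on the isoflavone arrays and 78.8 in the control. EPAS1, the hypoxia factor HIF-2α, read 1340 and 1324 against 508 and 494, with 965 in the control. INSIG1, a brake on sterol synthesis, read 3017 and 3402 against 1206 and 1483, with 731 in the control. LOX, a collagen cross-linking enzyme, read 1237 and 931 against 588 and 434. RUNX1T1 (1.48 and 1.26), SMAGP (1.84 and 1.20), TC2N (1.78 and 1.08) and ERCC2 (1.24 and 1.12) had the same direction, given as the log2 ratios of the first and the other pair. NR4A1 (1.55 and 1.43) was read by an _x_at probe set, and a dim probe set gave −0.44 in the first pair. IL12A, TIPARP, INSIG1 and EPAS1 were above the control on both BR-DIM arrays. On both isoflavone arrays EPAS1 was below the control and INSIG1 above it. TIPARP was above the control on isoflavone 6 h (1779 against 1188) and near it on isoflavone 72 h (1192).

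Genes lower with BR-DIM in both pairs included EGR1, an immediate early factor, at 510 and 555 on the BR-DIM arrays against 1190 and 1597 on the isoflavone arrays, with 396 in the control. Isoflavone was thus the side that differed from the control for EGR1. CGA, the α subunit of glycoprotein hormones, read 211 and 230 against 584 and 514, with 180 in the control. CRY1, a circadian repressor, read 973 and 810 against 1966 and 1740, with 1520 in the control. NCOA5, a nuclear receptor coactivator, read 524 and 437 against 1241 and 978, with 918 in the control. ATXN1L (−1.35 and −1.15, with an _s_at probe set at 0.07 in the first pair), METTL1 (−1.38 and −1.04) and TMEM127 (−1.59 and −1.58) were alike, TMEM127 with a dim probe set at 0.61 in the first pair. MT1HL1, a metallothionein copy, was lower by 3.92-fold and 4.10-fold.

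**Figure D5:**
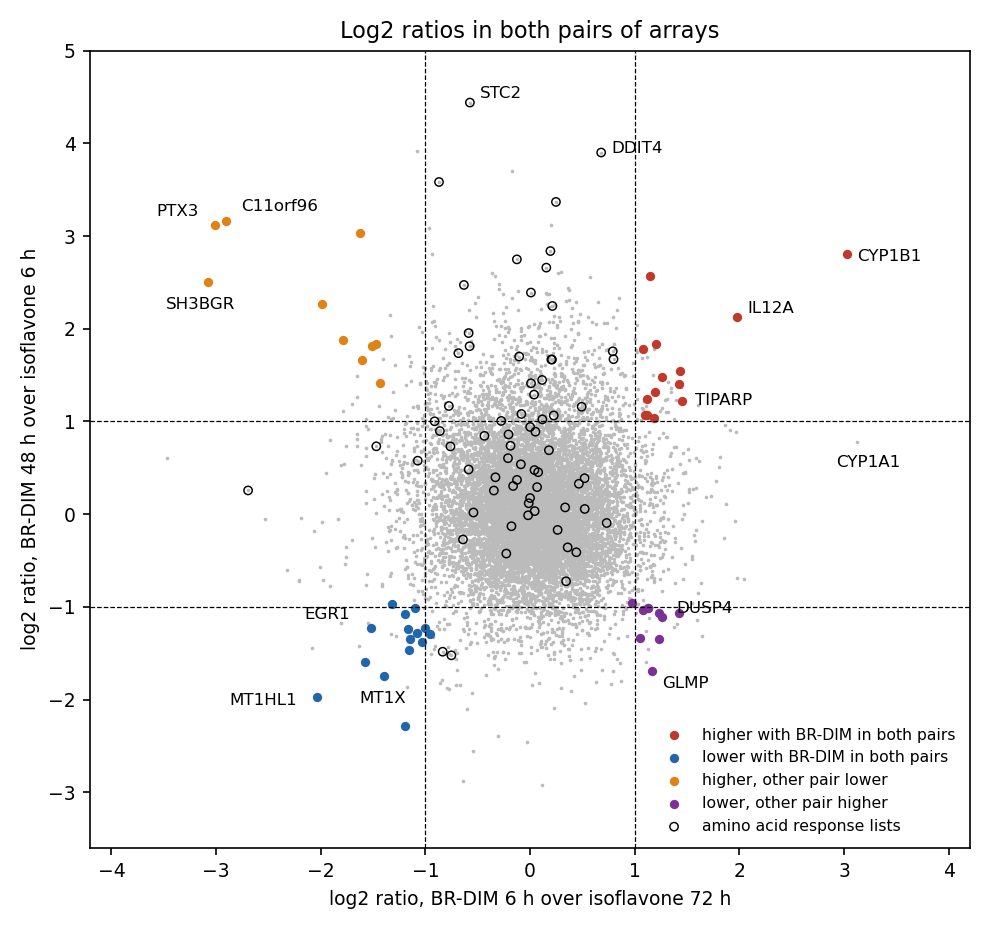
Log2 ratio of BR-DIM 48 h over isoflavone 6 h (vertical axis) against BR-DIM 6 h over isoflavone 72 h (horizontal axis), which share no array, with 1 grey point per gene measured in both pairs and dashed lines at 2-fold. CYP1B1 (2.80 and 3.02) and MT1HL1 (−1.97 and −2.04) keep their direction, PTX3 (3.12 and −3.01) turns, and the amino acid response genes (open circles) spread vertically around a median of −0.02 in the other pair.

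A further set turned direction between the pairs, with the later array of each pair on the same side. PTX3, a secreted pattern recognition molecule, read 847 on BR-DIM 48 h and 921 with isoflavone at 72 h, against 66.2 on isoflavone 6 h, 114 on BR-DIM 6 h and 94.7 in the control. C11orf96 read 6986 and 9849 on the later arrays against 780, 1316 and 956, by an _s_at probe set, and a dim probe set gave 0.11 in the first pair. SH3BGR read 4560 and 7143 against 804, 844 and 424, and MALAT1, a nuclear long noncoding RNA, 6048 and 10820 against 1647, 3141 and 2292. In each of these the arrays at 48 h and 72 h lay above the control and both arrays at 6 h. GLMP, a lysosomal membrane protein, read 464 and 432 on the later arrays against 1502 on isoflavone 6 h, 966 on BR-DIM 6 h and 1266 in the control. A dimmer probe set of GLMP read 360 and 317 in the first pair (0.18). CTSA (553 and 553 against 1398, 1141 and 1546) had the same order. In all, 46 genes were higher in the first pair and lower in the other, and 20 the reverse.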

How the data were processed

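RNA of C4-2B cells was hybridised to 5 Affymetrix U133 Plus 2.0 arrays, 1 per condition. The deposited values are linear intensities per probe set, made by the authors with MAS5, which scales each array; no depth applies to arrays, and their number limits the precision. The table held 54613 probe sets, of which 41091 carried 1 gene symbol in the platform annotation, 1801 several and 11721 none listed. A gene was read by its probe set of highest mean signal, except for 7 genes of the study's array table, which kept its probe sets. Signals under 97.1, the median of all signals, were raised to it before the log2 ratio, and 2-fold was called a difference. No test was possible.

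Named genes were the 20 largest each way with a signal of at least 388.4, up to 5 members past 2-fold of each of 52 lists, the 15 alike and 10 opposed each way in both pairs, and the study's table genes. Further genes, such as ATF4, ASNS, CHAC1, markers, list members within 2-fold and those nearest to 2-fold, were picked with their values in view. The arrays, members and lists were chosen with earlier results of these data known. Alternatives were another scaling, floor, fold, probe set rule, dim gene filter and centring. Some genes of that table are not reported here. Python 3.11.15, numpy 2.4.6, pandas 2.3.3, statsmodels 0.14.6 and matplotlib 3.10.9 were used, and the code was tested on simulated data.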

Additional observations from a re-analysis of the deposited data

Results flagged for a closer look

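Among genes at least 4 times above the floor in both pairs, 27 were 2-fold or more higher with BR-DIM in the first pair and lower in the other, and 9 the reverse. The 9 are given, with the 10 of the 27 whose smaller log2 ratio of the 2 pairs was largest in size. Of the log2 ratios given, the first is from BR-DIM 48 h and isoflavone 6 h, and the second from BR-DIM 6 h and isoflavone 72 h. With 1 array per condition the difference between the pairs was not tested. PTX3 had 3.12 and −3.01, C11orf96 3.16 and −2.90, and SH3BGR 2.50 and −3.08. EMILIN2, an extracellular matrix glycoprotein, had 2.27 and −1.98, MALAT1 1.88 and −1.78, and TCIM 3.03 and −1.62. DPYD, the enzyme that starts pyrimidine breakdown, had 1.67 and −1.60, EMP3 1.81 and −1.51, HINT3 1.84 and −1.48, and TCEAL7 1.41 and −1.44. In the reverse direction KBTBD4 had −1.35 and 1.23, GLMP −1.69 and 1.16, PDCD2 −1.11 and 1.26, and CTSA −1.34 and 1.05. DUSP4, a phosphatase of MAP kinases, had −1.07 and 1.23, and ENPP2, the gene of autotaxin, −1.01 and 1.13. DEF8 (−1.06 and 1.42), LINC00665 (−1.03 and 1.08) and TAF8 (−1.02 and 1.13) were the last of the 9. Another probe set opposed the first ratio for DPYD (−0.89), DUSP4 (0.45), GLMP (0.18), TAF8 (0.06) and PDCD2 (0.40), the last at −0.29 with its probe sets averaged.

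Probe sets that the gene table does not hold, left out of every gene count, leaned the other way from the probe sets used for genes. Of 4051 measured, 383 (9.45%) lay 2-fold or more below isoflavone 6 h and 149 (3.68%) above it, so that 28.0% of their calls were higher. That share was 72.1% for the probe sets used for genes, 57.3% for the other probe sets of named genes and 51.4% for those with several symbols. Among the 1147 with a signal at least 4 times the floor, 147 were lower and 68 higher. The part of signal strength in this difference was not tested.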

How the results depend on the processing

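Of 135 genes named above that passed 2-fold, 67 kept direction and call under each alternative that gave a value and 68 fell short under at least 1 of them, for causes that were not tested. Direction turned for 4 genes: without _s_at and _x_at probe sets for CCND1 (−0.63, as by its brightest probe set), HEXIM1 (0.68), NR4A1 (−0.44) and TMEM127 (0.61), as did the median of the metallothionein list (0.082). The counts followed the floor and the fold. Genes higher and lower on BR-DIM 48 h numbered 1729 and 692 with no floor, 316 and 151 when the floor was raised to the 75th percentile, 2427 and 1473 at 1.5-fold, and 257 and 42 at 3-fold. With the floor added as a pseudocount 254 were lower, and among genes at least 4 times above the floor 679 were higher. Genes higher in both pairs, lower in both, higher then lower and lower then higher numbered 130, 44, 92 and 65 with no floor, 7, 7, 11 and 4 with the higher floor, 10, 11, 16 and 4 with the pseudocount, and 19, 13, 27 and 9 at 4 times the floor. Genes higher in both were 25 with probe sets averaged and 25 with the trend removed, and those lower then higher 7 with probe sets averaged. The filter at 4 times the floor and the removal of the trend were chosen after seeing the data. No paired analysis was possible because each condition had 1 array and no replicate numbers were shared, and no array could be left out of a pair. Signals near the floor limit the dim genes, whose folds are bounds.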

Other observations

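The counts here stand beside 8.04% of all genes higher and 3.11% lower, and most lists hold few called genes. Of 10 glucocorticoid-induced genes 4 were higher by 2-fold or more with BR-DIM at 48 h and 2 lower, with a median log2 ratio of 0.62. TSC22D3, the gene of the leucine zipper protein GILZ, read 1123 and 382 (1.56), against 522 in the control. The MAP kinase phosphatase DUSP1 read 6383 and 2820 (1.18), against 2016 in the control. KLF9 (1.27) and TFCP2L1 (1.04) were higher as well, whereas the kinase SGK1 was lower at 239 and 549 (−1.20) and MT2A was the other lower gene. Among 14 AP-1 and early growth response factors KLF4 (1.44), KLF10 (1.12), KLF6 (1.06) and ATF3 were higher and EGR1 was lower. Of 13 BCL2 family genes the death-promoting members HRK (478 and 117, 2.03) and BIK (at least 2.54-fold) were higher and 0 were lower. Of 16 p53 targets SAT1, an enzyme of polyamine breakdown, read 11609 and 3196 (1.86), and GADD45A (1.17) and FAS (1.01) were higher too.

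Of 16 BMP, SMAD and ID genes the receptor BMPR1B (447 and 121, 1.88) and the ligands BMP7 (1033 and 294, 1.81) and BMP4 (at least 2.05-fold) were higher, while ID1 (−0.28), ID2 (0.21) and ID3 (0.55), which BMP signals induce, lay within 2-fold. BMP7 was at 0.67 when its probe sets were averaged. Of 15 Hippo kinases and YAP targets AJUBA (2.08) and TEAD4 (1.19) were higher and CCN2 was lower (−1.85). Of 16 cholesterol genes INSIG1 (1.32) and MSMO1 (1.15) were higher and 0 were lower, and HMGCS1, the first committed step, was at 0.15.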
